A study of Mus musculus with 4 samples.

Results

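The 10 Frizzled genes of the mouse, Fzd1 to Fzd10, encode the cell-surface receptors for Wnt proteins, and all 10 were among the 25239 gene symbols of the deposited count table. The members were chosen by gene symbol as a complete family. The family itself was selected on earlier results of the same comparison, in which the fold change of Fzd10 stood out. Its values between the populations are therefore given as a description, and the calls quoted for its members come from a fit over all genes and are not independent support. RNA was sequenced from hindlimb bud cells of FVB mouse embryos at embryonic day 11.5. The labels give the genotype of all embryos as wild-type, and all carried the same mCherry reporter at the H11 locus, made of an hsp68 promoter and the human ZRS, a limb enhancer of Shh, with the change 404G>A. The populations, each with 2 libraries, were dissected and sorted: anterior cells with mCherry fluorescence, and central cells without it. The mCherry-positive gate selects the anterior cells in which the transgene was active, whereas the central cells came from another dissected domain, so position and reporter activity cannot be told apart. The labels do not say how many embryos went into a library or whether the libraries came from separate embryos, so p-values measure only the spread between these libraries, which may be technical.

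Frizzled proteins span the membrane and bind Wnt through a cysteine-rich domain outside the cell. With Lrp5 or Lrp6 as co-receptor they stabilise beta-catenin, and with Ror2 or the planar polarity proteins they act on cell shape and orientation without it. In limb buds, Wnts from the ectoderm keep the underlying mesenchyme undifferentiated, and Wnt5a made by the distal mesenchyme orients its outgrowth.

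By protein sequence the family falls into the subfamilies Fzd1, Fzd2 and Fzd7; Fzd5 and Fzd8; Fzd4, Fzd9 and Fzd10; and Fzd3 and Fzd6. Among all 45 pairs, identity over aligned residues ran from 36.2% to 81.9%, with the highest value between Fzd1 and Fzd7. Fzd10 was most like Fzd9, at 66.7%. What every member shares is the KTxxxW motif just inside the cell after the last membrane-spanning segment, where the adaptor Dishevelled binds. It was found once in each of the 10 translated coding sequences. The 18 coding bases at the motif are shown for 6 members, because they show the part of the receptor through which all of them reach the same adaptor whether their RNA was higher or lower in anterior cells. They come from the GENCODE M21 transcripts (GRCm38), run 5′ to 3′, and have the codons of the fixed lysine, threonine and tryptophan in capitals.
Fzd10: AAGACCctgcagtccTGG
Fzd4: AAAACTcttcacacgTGG
Fzd7: AAGACCctgcagtcaTGG
Fzd2: AAGACActgcactcgTGG
Fzd3: AAGACAtgctttgaaTGG
Fzd6: AAGACGtgcacagaaTGG
Over these bases Fzd7 differed from Fzd10 at 1 position, Fzd2 at 3, Fzd4 at 6, and Fzd3 and Fzd6 at 10 each. After the motif, 17 residues followed in Fzd1, Fzd2 and Fzd7, against 50 in Fzd10, 159 in Fzd3 and 206 in Fzd6. The longest exact run shared by the transcripts of any pair was 47 bases (Fzd1 with Fzd2, and Fzd1 with Fzd7), and the median over pairs was 17. Sequence from Fzd8 is not shown.

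In anterior cells Fzd10, Fzd3 and Fzd4 were higher and Fzd2, Fzd6 and Fzd8 were lower than in central cells. Fzd10 stood 3.93-fold higher, Fzd6 stood 6.20-fold lower and Fzd8 2.27-fold lower, while Fzd2 was 1.63-fold lower, and Fzd3 and Fzd4 were 1.31-fold and 1.30-fold higher. A gene is said to be called where its Benjamini-Hochberg adjusted p-value in edgeR's quasi-likelihood test over all 14610 tested genes was under 0.05. All 10 members passed the filter on low counts, 6 were called and 4 were not. The calls comprised 3 higher and 3 lower members. Over all tested genes 22.9% were called, 10.7% higher and 12.3% lower in anterior cells. Because the contrast was known when the family was picked, nothing is read from these counts. The median log2 fold change of the members was -0.08, beside -0.01 for all tested genes. Values are in CPM, the usual counts scaled to library size, here with TMM factors. In bulk libraries of sorted cells, fewer cells of a type and less RNA per cell cannot be told apart.

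**Figure D1:**
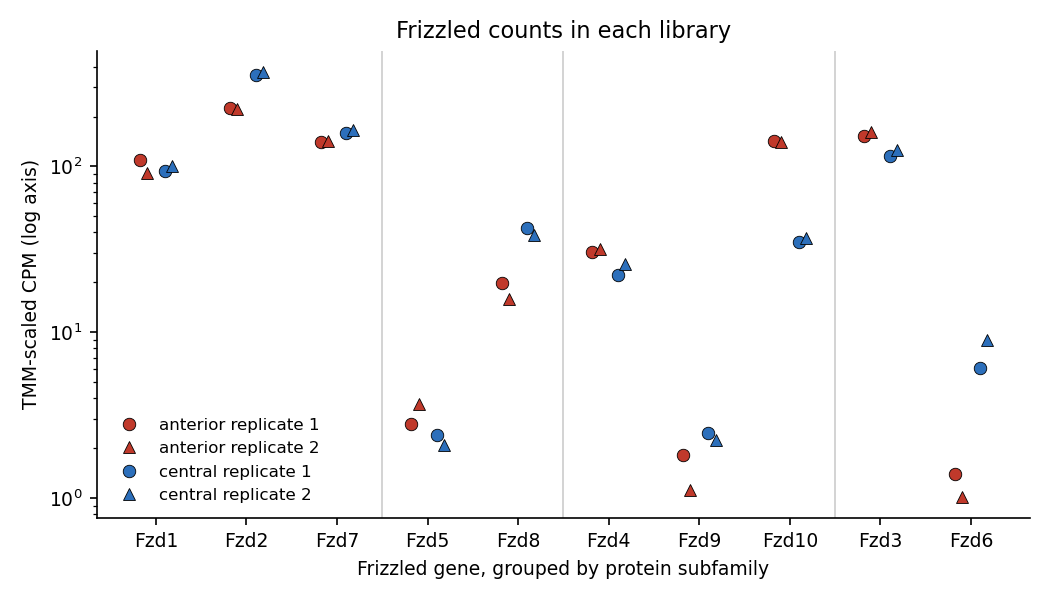
TMM-scaled CPM on a log axis for each Frizzled gene in the 4 libraries, with anterior libraries in red and central ones in blue, circles for replicate 1 and triangles for replicate 2, and grey lines between protein subfamilies. Fzd10 lies at 141 and 142 CPM in anterior libraries and at 35.04 and 36.9 in central ones, while Fzd2, Fzd8 and Fzd6 lie lower in anterior libraries and Fzd1 overlaps.

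The counts of Fzd10 were 4723 and 4139 in anterior cells and 1079 and 1196 in central cells. After scaling these were 142 and 141 CPM against 35.04 and 36.9. The anterior libraries were almost equal to each other and both lay far above the central ones. The log2 fold change, anterior minus central, was 1.97 ± 0.07 (SE), and 98.8% of tested genes had a fold change at or below it. Fzd10 is a single-exon gene at chr5:128600844-128604093 on the forward strand (GRCm38, GENCODE M21). In RefSeq, Fzd10 starts later, at 128601106, and the long non-coding RNA gene Fzd10os ends at 128600687, which is 418 bases before that start. Fzd10os, looked up after its values were seen, was counted 106 and 99 times in anterior cells and 108 and 104 times in central cells. Its populations overlapped, with a log2 fold change of -0.04 ± 0.28 (SE; edgeR adjusted p-value 0.941).

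The other members of the Fzd10 subfamily were much less abundant. Fzd4, which also serves as the receptor for Norrin in vessels, measured 30.3 and 31.8 CPM in anterior libraries and 22.1 and 25.7 in central ones. The populations did not overlap, and the log2 fold change of 0.38 ± 0.11 (SE) was called. The call was lost without anterior library 1 (log2 fold change 0.42), without anterior library 2 (0.35) and without central library 1 (0.28), and with library size alone, upper-quartile factors and the DESeq2 Wald test. Fzd4 (chr7:89404355-89413134) was the only member of the 6 called whose call depended on these settings. Fzd9 (chr5:135248938-135251230) was at 1.83 and 1.12 CPM in anterior libraries and 2.47 and 2.26 in central ones, from 33 to 76 counts per library. Its log2 fold change of -0.67 had an SE of 0.39 and was not called.

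Fzd2 had the highest count of the family in every library. It measured 225 and 222 CPM in anterior libraries and 357 and 371 in central ones, so that the populations were well separated. Its log2 fold change was -0.70 ± 0.06 (SE), which is 1.63-fold lower in anterior cells, and it was called. Its close relatives Fzd7 and Fzd1 differed less. Fzd7 measured 140 and 142 CPM against 158 and 166, a log2 fold change of -0.20 ± 0.06 (SE) that was not called. Fzd7 was called under 5 of the alternatives, and without central library 1 (log2 fold change -0.23). Fzd1 measured 109 and 90.9 CPM against 94.0 and 101, and was the only member whose populations overlapped. The populations did not overlap for the other 9 members, nor for 63.5% of all tested genes, so nothing is read from that count. Its log2 fold change was 0.04 ± 0.10 (SE), and it changed sign without anterior library 1 (-0.10) and without central library 1 (-0.01). Fzd2 lies at chr11:102604396-102608058, Fzd7 at chr1:59482424-59486955 and Fzd1 at chr5:4753839-4758035, each as a single exon.

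Fzd8, which with Fzd5 forms a subfamily known for strong beta-catenin signalling, measured 19.8 and 15.95 CPM in anterior libraries against 42.8 and 38.4 in central ones. The populations were separate, and the log2 fold change was -1.18 ± 0.13 (SE). Fzd8 was called. Fzd5 was scarce, with 94 and 108 counts in anterior libraries and 74 and 68 in central ones. Its populations did not overlap either, but the log2 fold change of 0.53 had an SE of 0.32 and was not called. Fzd8 is at chr18:9212163-9218136 and Fzd5 at chr1:64730558-64737751.

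Fzd3 and Fzd6 are the members best known from planar polarity, in neurons and in skin, and they differed in opposite directions. Fzd3 (chr14:65192449-65262463) measured 153 and 162 CPM in anterior libraries and 115 and 126 in central ones. Its log2 fold change of 0.39 ± 0.07 (SE) was called. Fzd6 (chr15:39006034-39038188) measured 1.41 and 1.02 CPM against 6.14 and 9.02. Its counts were 47 and 30 in anterior libraries and 189 and 292 in central ones, so that its level was low in each but the populations lay well apart. The log2 fold change was -2.63 ± 0.32 (SE), and 3.06% of tested genes had a fold change at or below it.

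**Figure D2:**
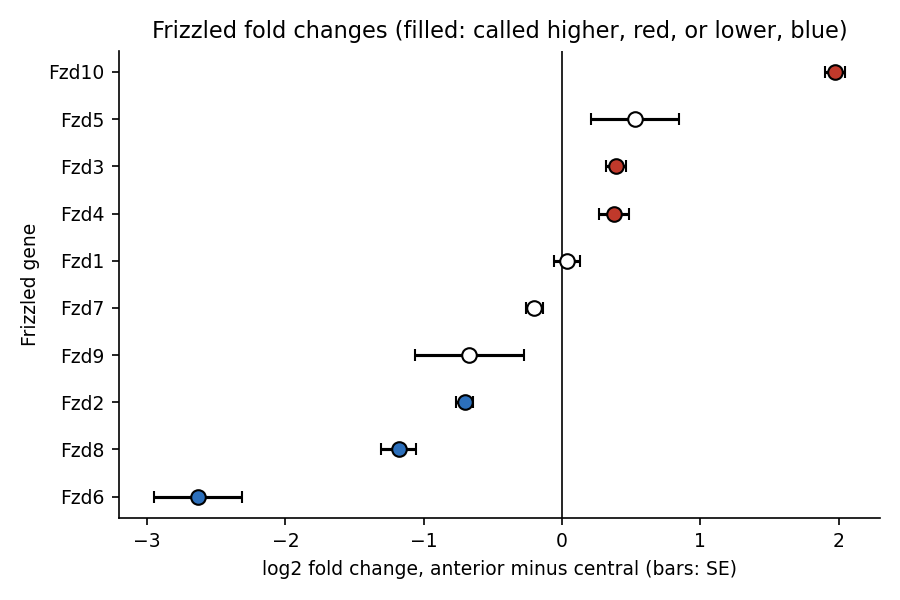
Fitted log2 fold change of each Frizzled gene, anterior minus central, with SE bars; red points were called higher, blue points lower, and open points were not called. Fzd10 lies at 1.97 and Fzd6 at -2.63, and the widest bars belong to the scarce genes Fzd9, Fzd6 and Fzd5.

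Markers of surface ectoderm, like Fzd6, were lower in anterior libraries. The summed level of 13 ectoderm markers was 11.2 and 11.8 CPM in anterior libraries and 56.9 and 193 in central ones. Of 12 tested ectoderm markers 10 were called lower, among them Krt5, Trp63 and Fgf8, each of which had 2 to 8 counts in the anterior libraries. Between the central libraries, the one with the higher ectoderm sum also had the higher Fzd6 value. The anterior libraries had nearly equal sums and only 47 and 30 counts of Fzd6, so nothing is read from their order. Ectoderm was not alone, as myogenic, cartilage, and Schwann and neural crest sums were lower in anterior libraries too. The 10 endothelial markers summed to 18.05 and 22.9 CPM in anterior libraries against 47.4 and 51.7, with 5 called lower, whereas the vessel-associated receptor Fzd4 was higher there. The part of ectoderm or endothelium in these Frizzled values was not tested.

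**Figure D3:**
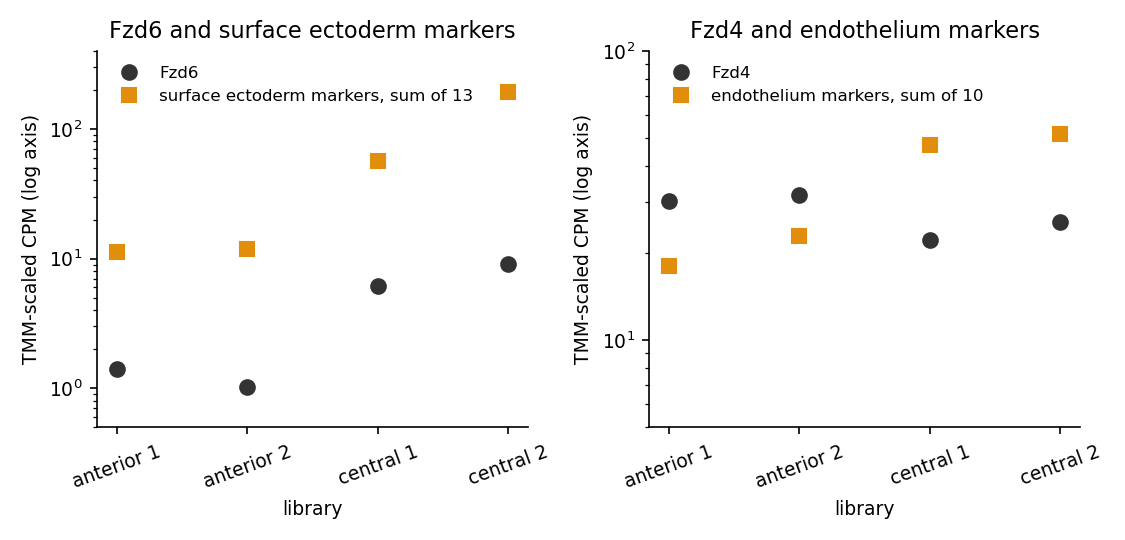
TMM-scaled CPM on a log axis for Fzd6 with the sum of 13 surface ectoderm markers (left) and for Fzd4 with the sum of 10 endothelial markers (right) in each library. Fzd6 and the ectoderm sum are both lower in the anterior libraries, whereas Fzd4 is higher in anterior libraries where the endothelial sum is lower.

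The labelled tissue was checked on limb mesenchyme markers, which were abundant in every library. Of 8 such markers 4 were called higher (Msx1, Prrx2, Fgf10 and Twist1), 1 lower (Pdgfra) and 3 were not called (Prrx1 and the hindlimb factors Tbx4 and Pitx1). Prrx1 averaged 696 CPM in anterior and 661 in central cells, whereas Msx1 averaged 246 and 25.7. Summed over the list, levels were 2696 to 2739 CPM in anterior libraries and 2278 to 2429 in central ones. Other cells were represented unequally. Erythroid markers summed to 3300 and 8406 CPM in anterior libraries and to 8.28 and 11.1 in central ones (8 of 8 called higher). Myogenic markers summed to 18.6 and 9.61 against 238 and 216 (8 of 8 lower), with Myog and Pax7 at 0 in both anterior libraries. Cartilage markers summed to 418 and 304 against 1509 and 1202 (4 of 7 lower). Macrophage markers were at 26.4 and 26.6 against 7.99 and 6.98 (4 of 7 higher), and Schwann and neural crest markers at 13.9 and 9.51 against 28.8 and 24.0 (2 of 4 lower), with Sox10 and Foxd3 at 0 in both anterior libraries. Their part in the Frizzled values was not tested. With the erythroid markers and the ribosomal RNA precursor Rn45s removed before scaling, the same 6 members were called. Library totals were 30080925 to 33257383 counts, at which 3 counts correspond to 0.0899 to 0.102 CPM.

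To compare levels between members, CPM was divided by the length of the exons in kb. On this scale the whole family summed to 183 and 178 CPM per kb in anterior libraries and 188 and 197 in central ones. The summed level was thus 5.92% lower in anterior cells (181 ± 3.57 against 192 ± 6.27, SD, n = 2). Its libraries did not overlap, but neither did those of 63.5% of all tested genes, so nothing is read from that. The difference was 3.70% without central library 2 and 8.04% without central library 1, an alternative chosen after seeing the data. Summed as CPM without division by length, the family was 4.47% lower in anterior cells. The make-up of the sum differed more than its size, which follows in part from selecting the family on the fold change of Fzd10. Fzd10 made up 23.8% and 24.4% of the summed level in anterior libraries and 5.74% and 5.78% in central ones. Fzd2 made up 33.5% and 34.0% against 51.9% and 51.6%. In anterior libraries the level of Fzd10 per kb was 70.9% and 71.7% of that of Fzd2, and in central libraries it was 11.1% and 11.2%. Fzd1, Fzd2, Fzd7 and Fzd10, a set chosen by its values, together held 88.1% to 88.4% of the summed level in each of the 4 libraries. This total was less even with RefSeq lengths for the single-exon members. On those lengths Fzd1, Fzd2 and Fzd7 held 61.9% and 61.2% in anterior libraries and 79.4% and 79.7% in central ones. Fzd10 then held 25.3% and 25.9% against 6.10% and 6.17%.

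**Figure D4:**
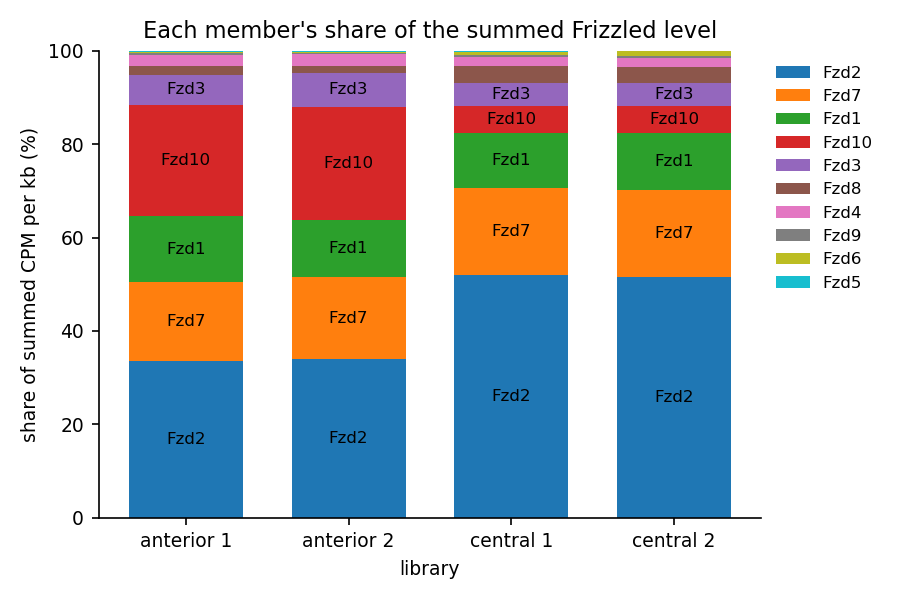
Share in percent of the summed Frizzled level, in CPM per kb of exon, held by each member in each of the 4 libraries. The Fzd10 segment covers 23.8% and 24.4% of the anterior bars and 5.74% and 5.78% of the central ones, and the Fzd2 segment is correspondingly smaller in the anterior bars.

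In anterior cells the order of levels per kb was Fzd2 (61.0 ± 0.61, SD, n = 2), Fzd10 (43.5 ± 0.11), Fzd7 (31.1 ± 0.22), Fzd1 (23.8 ± 3.06), Fzd3 (12.3 ± 0.49), Fzd4 (4.62 ± 0.16), Fzd8 (2.99 ± 0.46), Fzd9 (0.64 ± 0.22), Fzd5 (0.47 ± 0.09) and Fzd6 (0.25 ± 0.06). The neighbours Fzd9 and Fzd5 had overlapping libraries there, and the other neighbours did not. In central cells the order was Fzd2 (99.4 ± 2.73), Fzd7 (35.7 ± 1.15), Fzd1 (23.2 ± 1.19), Fzd10 (11.1 ± 0.42), Fzd3 (9.40 ± 0.60), Fzd8 (6.80 ± 0.52), Fzd4 (3.56 ± 0.37), Fzd6 (1.57 ± 0.42), Fzd9 (1.03 ± 0.07) and Fzd5 (0.33 ± 0.03). No neighbours overlapped in central cells. Fzd10 thus moved from the fourth place to the second and Fzd6 from the eighth to the last. The level of Fzd8 depended on the gene model, since GENCODE gives it 5974 bases and RefSeq 3346. With RefSeq lengths for the single-exon members, Fzd8 measured 12.1 CPM per kb in central cells beside 12.0 for Fzd10, with overlapping libraries. In anterior cells Fzd8 measured 5.35, above the 4.62 of Fzd4, which kept its GENCODE length of 6720 bases. The RefSeq span of Fzd4, introns included, is shorter at 5745 bases, so this order rests on mixed gene models.

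By subfamily, the members Fzd1, Fzd2 and Fzd7 held 64.6% and 63.7% of the summed level in anterior libraries and 82.5% and 82.4% in central ones. The share of Fzd4, Fzd9 and Fzd10 was 26.7% and 27.3% against 8.07% and 8.23%. Fzd5 and Fzd8 held 2.03% and 1.80% against 4.002% and 3.43%, and Fzd3 and Fzd6 held 6.68% and 7.21% against 5.46% and 5.95%. With RefSeq lengths for the single-exon members, the share of Fzd5 and Fzd8 in central libraries was 6.83% and 5.87%. Since shares add up to the whole, a larger share of one member lowers the others.

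The genes whose values over the 4 libraries lay closest to those of Fzd10 were Dkk1, Pmaip1 and Svep1. Likeness was the root mean square difference of log2 CPM, each gene centred on its own mean, among 10605 genes with a mean of at least 5 CPM. It was 0.088, 0.089 and 0.11 for these genes. Dkk1 measured 18.2 ± 1.45 against 4.17 ± 0.57 CPM, Pmaip1 425 ± 17.5 against 111 ± 8.61 and Svep1 53.8 ± 6.09 against 12.2 ± 0.80 (SD, n = 2 each). For Fzd6, the called member with the largest fall, the closest were Hhip (0.080), Fbxo41 (0.15) and Zfhx4 (0.16). With 4 libraries in 2 populations, such likeness mostly reflects an equal fold change.

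The rest of the Wnt pathway was described with 8 lists holding 94 genes, of which 83 were tested. Of these, 14 were called higher and 31 lower in anterior cells. Over all tested genes 22.9% were called, 10.7% higher and 12.3% lower. Because the lists were drawn up with earlier results of these data known, nothing is read from the number called in each list.

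Among 7 tested co-receptors, 2 were called higher and 2 lower (median log2 fold change 0.03). The beta-catenin co-receptors Lrp5 and Lrp6 were not called. Lrp6 measured 225 and 230 CPM in anterior libraries and 213 and 232 in central ones, with overlap (log2 fold change 0.03, SE 0.07; adjusted p-value in edgeR 0.767). Lrp5, at 147 and 137 CPM against 141 and 152, overlapped too (log2 fold change -0.05, edgeR adjusted p-value 0.696). Both changed sign within the alternatives. Of the tyrosine kinase-like Wnt receptors, Ror1 and Ror2 were lower in anterior cells, Ptk7 was higher and Ryk was not called. Ror1 measured 4.56 and 2.18 CPM against 45.7 and 39.3, a log2 fold change of -3.64 ± 0.26 (SE; edgeR adjusted p-value 2.76e-05). Ror2 measured 94.6 and 91.3 CPM against 136 and 150 (log2 fold change -0.63, SE 0.07; adjusted p-value in edgeR 0.000539). Ptk7 measured 507 and 526 CPM against 347 and 362 (log2 fold change 0.54, edgeR adjusted p-value 0.000443). Ryk was at 158 and 165 CPM against 144 and 139.7 (log2 fold change 0.18, edgeR adjusted p-value 0.0713). Lrp4 was higher, at 67.9 ± 7.22 against 44.0 ± 8.79 CPM (SD, n = 2; log2 fold change 0.63, edgeR adjusted p-value 0.0116).

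Of the genes that control how long Frizzled stays on the membrane, 7 of 9 were called lower and 1 higher (median log2 fold change -1.15). R-spondins protect Frizzled by capturing the ubiquitin ligases Znrf3 and Rnf43. The list holds both, so its counts give no direction for turnover. Lgr4, Lgr5, Lgr6 and Rspo1 were among those called lower. Rspo1 (1 and 0 counts in anterior libraries, 29 and 24 in central ones) and Lgr6 (4 and 4 against 18 and 32) were scarce. Rspo2 had 56 and 44 counts in anterior libraries but 468 and 685 in central ones, or 1.59 ± 0.13 against 18.2 ± 4.22 CPM (SD, n = 2). Its log2 fold change was -3.51 ± 0.24 (SE; edgeR adjusted p-value 2.14e-05). Rspo3 was lower at 18.4 and 18.5 CPM against 41.3 and 37.0 (log2 fold change -1.08, edgeR adjusted p-value 0.000158). Rspo4 went the other way, at 11.5 and 16.9 CPM against 3.57 and 2.93 (log2 fold change 2.13, SE 0.24; adjusted p-value in edgeR 0.000446). Znrf3 was not called, at 28.5 ± 0.21 against 31.9 ± 2.77 CPM (log2 fold change -0.16, edgeR adjusted p-value 0.304). Rnf43 was scarce and called lower (log2 fold change -2.74, SE 0.81; adjusted p-value in edgeR 0.0412, with its alternatives giving 0.00168 to 0.513), and the call was lost with limma-voom and without anterior library 1, anterior library 2 or central library 2 (log2 fold change -1.20 without the last).

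Other Frizzled partners included Shisa2 and Shisa3, which hold Frizzled back inside the cell. Both were lower in anterior cells. Shisa2 measured 53.3 and 50.5 CPM against 102 and 98.7 (log2 fold change -0.95, SE 0.08; adjusted p-value in edgeR 5.38e-05), and Shisa3 had a log2 fold change of -1.32 (edgeR adjusted p-value 0.0062). Apcdd1, a membrane inhibitor of Wnt, was higher, with a log2 fold change of 0.54 (edgeR adjusted p-value 0.0168), and was not called without anterior library 1 (0.36). In this list of 8 tested genes 1 was called higher and 3 lower (median log2 fold change -0.17).

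Of 7 tested genes for proteins that carry a Frizzled-type domain but are not Wnt receptors, 1 was called higher and 4 lower. The median log2 fold change was -0.47. The secreted decoys did not all go one way, as Sfrp1 and Sfrp2 were lower in anterior cells and Frzb was higher. Sfrp1 measured 27.2 and 24.3 CPM against 124 and 109 (log2 fold change -2.17, SE 0.10; adjusted p-value in edgeR 3.34e-06), and Sfrp2 64.3 ± 2.41 against 159 ± 46.0 (SD, n = 2; log2 fold change -1.31, edgeR adjusted p-value 0.000702). Frzb measured 185 and 205 CPM in anterior libraries and 141 in both central ones (log2 fold change 0.47, SE 0.07; adjusted p-value in edgeR 0.00201). Smo, the hedgehog transducer of the same receptor class, was not called and its libraries overlapped (326 ± 6.70 against 308 ± 19.3 CPM, log2 fold change 0.08, edgeR adjusted p-value 0.420). The collagen Col18a1 was called lower (log2 fold change -0.47, edgeR adjusted p-value 0.0322), but the call was lost with the robust prior, with the Wald test of DESeq2 and without anterior library 1.

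Inside the cell, 9 of 12 genes of the Dishevelled and destruction complex list were not called (median log2 fold change -0.04). Axin2, both a scaffold of the complex and a feedback target of beta-catenin, was the 1 member called higher. It measured 139 and 123 CPM in anterior libraries and 84.5 and 83.0 in central ones (log2 fold change 0.64, SE 0.08; adjusted p-value in edgeR 0.000674). Apc2 and Dvl1 were lower, with log2 fold changes of -1.32 and -0.34, but Dvl1 was not called without anterior library 1 (-0.36) or 2 (-0.32).

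Of the TCF/LEF factors and feedback targets, 4 of 12 were called higher and 2 lower (median log2 fold change 0.07). Among the DNA-binding partners of beta-catenin, Lef1 and Tcf7 were higher, Tcf7l2 was lower and Tcf7l1 was not called. Lef1 measured 191 and 173 CPM in anterior libraries and 69.1 and 68.2 in central ones, a log2 fold change of 1.40 ± 0.07 (SE; edgeR adjusted p-value 6.26e-06). Tcf7 measured 65.8 and 72.2 CPM against 22.8 and 32.3 (log2 fold change 1.32, edgeR adjusted p-value 0.000386). Tcf7l2 measured 79.9 and 67.6 CPM against 110.4 and 100.2 (log2 fold change -0.51, SE 0.10; adjusted p-value in edgeR 0.00582). The other gene called lower was the feedback target Sp5 (log2 fold change -1.02, edgeR adjusted p-value 0.0447). Nkd2, an inhibitor of Dishevelled, measured 149 and 156 CPM against 83.2 and 84.9 (log2 fold change 0.86, SE 0.07; adjusted p-value in edgeR 4.71e-05).

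Of the planar polarity genes 10 of 12 were not called, 2 were called higher and none lower (median log2 fold change 0.02). Vangl2, a core polarity protein, was at 153 ± 5.91 against 143 ± 2.94 CPM (SD, n = 2; log2 fold change 0.09, edgeR adjusted p-value 0.351). Daam2, a formin-family effector, reached 151 ± 21.2 CPM in anterior and 81.2 ± 7.04 in central cells and was called higher (log2 fold change 0.90, edgeR adjusted p-value 0.000487), as was Prickle1 (log2 fold change 0.55, edgeR adjusted p-value 0.0109).

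The ligand list had the lowest median of the 8, although its summed level was higher in anterior cells. The list summed to 907 and 831 CPM in anterior libraries and to 478 and 495 in central ones, with Wnt5a the largest part. Wnt5a, the main mesenchymal ligand, was higher in anterior cells, at 717 and 643 CPM against 264 and 253 (log2 fold change 1.40, SE 0.07; adjusted p-value in edgeR 5.87e-06). Wnt11 was lower, at 4.02 and 3.75 CPM against 31.5 and 26.8 (log2 fold change -2.91, SE 0.15; adjusted p-value in edgeR 6.36e-06). Of 16 tested genes of the list, which also holds the Wnt secretion genes Wls and Porcn, 2 were called higher and 11 lower. The median log2 fold change was -3.03, or -3.00 with the 5 genes of at most 3 counts in both anterior libraries set to a floor of 3 counts per library. Wnt6, made in the ectoderm, had 0 and 3 counts in anterior libraries and 158 and 639 in central ones. The same central library had the higher Wnt6 count and the higher ectoderm sum. Wnt7a (1.88 and 6.06 CPM in the central libraries) and Wnt7b (2.99 and 9.95) went the same way. Wnt2 (2.14 and 2.10 CPM) and Wnt11 were also called lower in anterior cells but did not. The part of ectoderm in the ligand values was not tested.

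**Figure D5:**
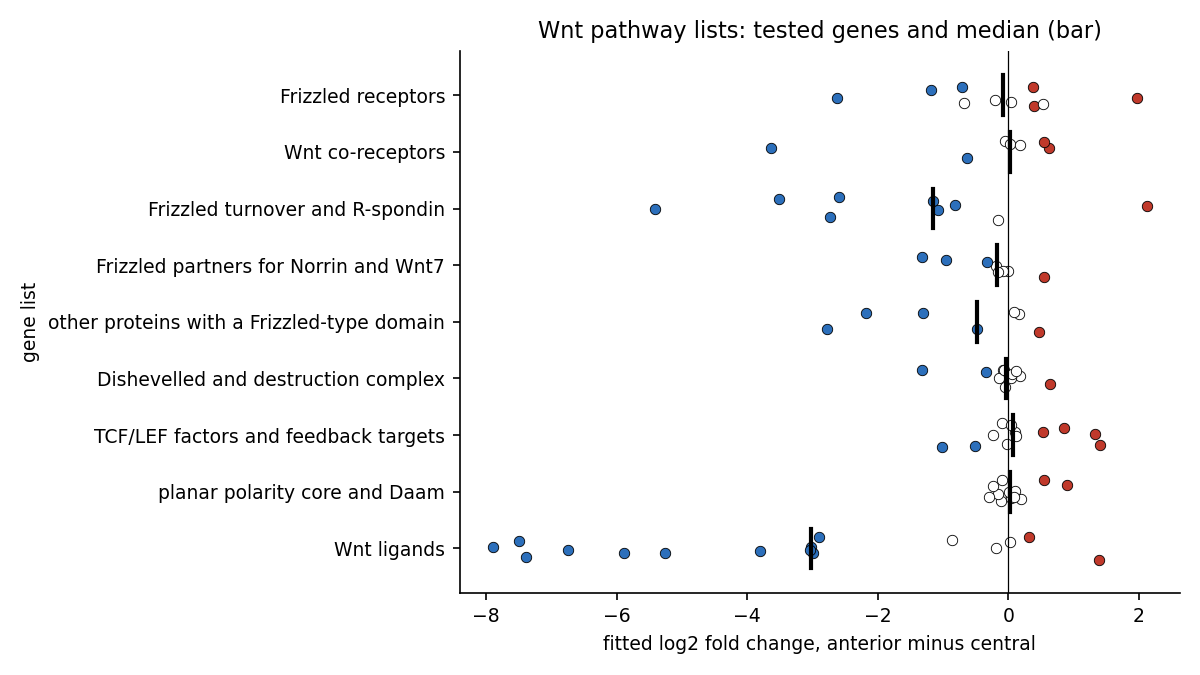
Fitted log2 fold change, anterior minus central, of each tested gene in the Frizzled family and in 8 Wnt pathway lists; red points were called higher, blue lower, open points were not called, black bars are medians, and vertical scatter within a row has no meaning. The Wnt ligand median lies at -3.03 and the turnover list at -1.15. The medians of Frizzled receptors, co-receptors, the destruction complex, TCF/LEF factors and feedback targets, and planar polarity genes lie within 0.1 of 0.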

How the data were processed

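RNA from 2 anterior and 2 central libraries was analysed from the table of whole-number counts per gene symbol that the authors deposited, not normalized. The submitters' processing notes name mm10, STAR 2.7.9a, HTSeq and DESeq2 3.16; annotation and strandedness are not given in the sources used here, which leaves counts of genes overlapping on opposite strands unsure. Of counts from 1 to 10, 72.8% to 75.6% per library were even, and a fit on halved counts was therefore added to the alternatives.

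Columns were matched to samples by domain and number in the titles. Counts were fitted across all genes with edgeR 4.0.16 in R 4.3.3 (default filterByExpr, TMM, quasi-likelihood F test, 2 residual degrees of freedom, Benjamini-Hochberg over 14610 genes, threshold 0.05). SE is the absolute log2 fold change divided by the square root of F. The alternatives used DESeq2 1.42.0, limma 3.58.1 and other scalings, filters, thresholds and sets of libraries. Exon lengths and coding sequences came from GENCODE M21, and all 10 members matched by symbol. The script was tested on simulated data. Intervals for single counts are not given. The floor of 3 counts takes each count as a separate fragment and covers counting error only. Whether the many even counts reflect fragments counted more than once was not tested, and if so this floor is too low.

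The members and lists were chosen with earlier results of these data known. Named were all members, up to 3 called genes per pathway list with the largest fold change at a mean CPM of at least 5 without overlap, 10 fixed genes (Lrp5, Lrp6, Ror2, Vangl2, Znrf3, Rnf43, Axin2, Lef1, Wnt5a and Smo), and the 3 genes most like Fzd10 and like the called member that fell most. Marker genes, Fzd10os, Frzb, Ptk7, Ryk, Tcf7l1, Tcf7l2, Sp5, Ndp and the Wnt genes at or near 0 were named outside this rule, after their values were seen. So were Rspo1, Lgr4, Lgr5, Lgr6, Wnt2, Wnt7a and Wnt7b.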

Additional observations from a re-analysis of the deposited data

How the results depend on the processing

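Fzd2, Fzd3, Fzd6, Fzd8 and Fzd10 kept direction and call under every scaling, test, filter and left-out library. Fzd4 was not called with library size alone (0.346), upper-quartile factors (0.340) or the DESeq2 Wald test (0.382), and its log2 fold change ran from 0.276 to 0.490 when 1 library was left out. Fzd7 was called with library size alone (-0.229), upper-quartile factors (-0.236), a mean count of at least 50 (-0.213), halved counts (-0.202) and the robust prior (-0.199), and ran from -0.229 to -0.163 without 1 library. Fzd1 turned to -0.00061 with upper-quartile factors and ran from -0.098 to 0.167 without 1 library; Lrp6 turned to -0.0033 and ran from -0.024 to 0.099, and Lrp5 from -0.095 to 0.0090. The cause was not tested. With replicate number as a replicate block, 3586 genes were called and no Frizzled call changed; the replicate differences of the populations correlated at 0.064 across genes, so the numbers were not taken as pairs. Of all 3351 called genes, 1690 passed 0.01 and 1035 a change beyond 1.5-fold, as did 3 members (Fzd10, Fzd6 and Fzd8). Leaving out 1 library gave 2009 (without anterior library 2) to 3697 called genes; the lone library of a population was assumed to vary like the other population. The anterior Frizzled sum was 185 CPM per kb with RefSeq lengths for the single-exon members. Fzd5 and Fzd9 had 33 to 108 counts per library and SEs of 0.32 and 0.39; the part of depth in these SEs was not tested.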

Other observations

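Several genes of the Wnt lists were at or near 0 in these cells. Wnt1, Wnt8b and Mfrp had 0 counts in every library. Ndp, which encodes the Fzd4 ligand Norrin, was at 0 in anterior cells with 2 counts in each central library. Wnt10a and Wnt10b were at 0 in anterior cells, while central cells gave 16 and 26 counts of Wnt10a and 4 and 39 of Wnt10b.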
